A study of Mus musculus with 248 samples.

Results

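Aldoc, Pgk1 and Ldhb are 3 of the genes that encode glycolytic enzymes, and they are described here in single hematopoietic stem cells (HSCs) whose mitochondrial membrane potential (MMP) was low or high. They were chosen by symbol from the authors' deposited gene tables, with earlier results of these tables known, so their values in these tables are a description and carry no test. Where it is below 1, the authors' adjusted p is p times 16203. How many genes entered their test is not stated, and below this factor stands in for that count. If fewer genes were tested, each share of the genes tested would be larger than printed. The 3 genes belong to a list of 75 genes of glycolysis and its branches, and the whole list was looked up. Aldoc and Pgk1 are highly variable genes by the authors' list of 5624 such genes, and Ldhb is not on it.

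Cells came from C57Bl6 mice and were sorted by the surface phenotype Lin-Sca1+cKit+CD150+CD48-, then as MMP-low or MMP-high by the voltage across the inner mitochondrial membrane. The labels name no treatment or engineered allele for either group, and the sources used here do not give the age or sex of the mice. Libraries numbered 122 for MMP-low and 126 for MMP-high, each made from 1 cell captured on a Fluidigm C1 chip. Animals are not named in the labels, so each group counts as 1 sample, no difference has a replicate check, and the authors' p-values are over cells. According to the series' design text 224 cells were kept for analysis, fewer than the libraries, and how they divide between the groups is not stated. The values are the authors' per-group and per-cluster results, since expression per cell was not analysed here.

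Glycolysis turns glucose into pyruvate in the cytosol and yields ATP without oxygen, and lactate dehydrogenase then converts pyruvate and lactate into each other. Quiescent HSCs are known for low mitochondrial activity and for their use of glycolysis in a bone marrow that is poor in oxygen. Several glycolytic genes, Pgk1 among them, are classical targets of the hypoxia-inducible factor, which binds a short DNA element in their control regions. Aldoc encodes aldolase C, 1 of the aldolases that split a phosphorylated hexose into a pair of triose phosphates, and the form best known from brain. Pgk1 encodes phosphoglycerate kinase, which passes a phosphate to ADP and so makes ATP. Ldhb encodes the heart-type subunit of lactate dehydrogenase.

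In the mm10 assembly Aldoc lies on chromosome 11 from 78323073 to 78327781 (forward strand), Pgk1 on chromosome X from 106187100 to 106203699 (forward strand) and Ldhb on chromosome 6 from 142490249 to 142507957 (reverse strand). All are protein-coding, and the values below are for whole genes. The promoters are shown because the authors' transcription factor tables name Pgk1 in the sets of several factors, NF-Y subunits among them, and Ldhb in that of RUNX1. Each sequence runs from 250 bases before to 50 bases after the RefSeq start (GRCm38.p6, which shares its coordinates with mm10), and capitals mark ACGTG, the core of the hypoxia response element, and CCAAT, the box bound by NF-Y, on either strand.
Aldoc, chr11:78322823-78323122, forward: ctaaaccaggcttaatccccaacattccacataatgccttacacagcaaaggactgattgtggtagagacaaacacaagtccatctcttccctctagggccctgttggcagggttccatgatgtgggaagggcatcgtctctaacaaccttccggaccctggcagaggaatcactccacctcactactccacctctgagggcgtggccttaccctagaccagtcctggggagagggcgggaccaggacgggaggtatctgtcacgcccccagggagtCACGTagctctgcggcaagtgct
Pgk1, chrX:106186850-106187149, forward: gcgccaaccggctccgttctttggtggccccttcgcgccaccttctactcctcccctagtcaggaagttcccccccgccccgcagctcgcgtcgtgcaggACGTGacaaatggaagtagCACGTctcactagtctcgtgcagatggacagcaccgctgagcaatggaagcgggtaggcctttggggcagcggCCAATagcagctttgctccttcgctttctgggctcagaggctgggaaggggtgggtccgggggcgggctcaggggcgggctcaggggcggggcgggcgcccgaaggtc
Ldhb, chr6:142507908-142508207, reverse: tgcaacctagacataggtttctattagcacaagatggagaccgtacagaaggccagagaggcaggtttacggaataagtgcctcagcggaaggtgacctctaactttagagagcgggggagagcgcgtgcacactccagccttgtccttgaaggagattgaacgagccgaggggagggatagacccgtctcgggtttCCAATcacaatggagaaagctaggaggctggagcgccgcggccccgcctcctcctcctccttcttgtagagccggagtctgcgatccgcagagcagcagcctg
For Aldoc the upstream one of 2 RefSeq starts is shown. ACGTG, searched on both strands, matched at 2 places in the Pgk1 window and at 1 in the Aldoc window, and it did not match in the Ldhb window. Of 32851 mouse promoter windows of this length, 19.6% held it. CCAAT, searched the same way, matched at 1 place each in the Pgk1 and Ldhb windows and at 0 in the Aldoc window, and 37.4% of all windows held it. GGGCGG, the GC box, matched at 5 places in the Pgk1 window and at 1 in the Aldoc window, against 35.7% of all windows with a match. A match says only that these letters are present.

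The 3 genes were split between the MMP groups, with Aldoc and Ldhb on the MMP-low side and Pgk1 on the MMP-high side. The authors' deposited table lists genes with a p of at most 0.00999 and a minimum average log fold change of 0.25, whose base it leaves unstated. With 16203 as the total, it places 5.86% of the genes tested on the MMP-low side and 5.67% on the MMP-high side. An adjusted p under 0.05 was reached by 0 of the 3 genes, against 3.33% of the genes tested on the MMP-low side, 3.69% on the MMP-high side and 7.02% in all. The 2 and 1 genes on the 2 sides were chosen from this table, so these counts say nothing about the genes as a group.

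Aldoc was found in 65.7% of the MMP-low and 54.6% of the MMP-high cells, by the authors' deposited table. Over all libraries, kept or not, the median number of detected genes was 2317 in MMP-low and 3796 in MMP-high (SD over cells 681 and 1112). Among libraries numbered above 85 the order was reversed, at 2083 and 1905, and the part of these numbers in the detection of Aldoc was not tested. The log fold change of Aldoc was 0.29 toward MMP-low by the authors' deposited table, rank 724 of 949 in that direction, with an adjusted p of 1. Its unadjusted p of 0.00612 was close to the limit of the list, and only 25 of the 949 genes on that side had a larger one in the authors' deposited table. The detection difference of 11.1 percentage points stood near the median of 11.5 points over all genes listed as higher in MMP-low. By the 2 detection percentages, the listed genes nearest to Aldoc in the authors' deposited table were Fzd3 (65.7% and 53.8%), Tmem159 (66.7% and 53.8%) and Abl1 (66.7% and 55.5%), also on the MMP-low side. This likeness is over 2 groups, and as the genes were chosen by these same percentages, their shared side is no separate result.

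Ldhb was detected in 100% of the cells of both groups in the authors' deposited table. Its difference was thus one of level and not of detection, with a log fold change of 0.44 toward MMP-low and an adjusted p of 0.18, by the authors' deposited table. It ranked 291 of 949 genes in that direction. Detection in 100% of both groups was shared by 256 listed genes, of which 97 were on the MMP-low side, and Ldhb ranked 36 by fold among those. No gene is nearest to it by detection, since 220 named genes tie at a distance of 0. Its isoform partner Ldha, the muscle-type subunit, was not listed.

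Pgk1 was found in 99% of the MMP-low and 100% of the MMP-high cells, by the authors' deposited table. Its log fold change was 0.48 toward MMP-high, rank 82 of 919 in that direction, and the adjusted p of 0.055 lay just outside the threshold in the authors' deposited table. Like that of Ldhb, the difference lay in the level, since the gene was counted as detected in nearly all cells. Pgk1 is X-linked, and the table also lists sex-chromosome genes. The Y-chromosome genes Eif2s3y, Ddx3y and Uty were chosen after their values were seen, and all stood on the MMP-low side. Eif2s3y was found in 89.5% of the MMP-low against 12.6% of the MMP-high cells by the authors' deposited table. Ddx3y was at 70.5% against 8.4% and Uty at 65.7% against 5.0%, by the authors' deposited table. The X-linked Xist RNA stood on the MMP-high side, as Pgk1 did (96.2% and 100% of cells), with an adjusted p of 0.11, by the authors' deposited table. Y-linked Eif2s3y and Xist were thus each detected in most MMP-low cells. Whether a gene counted as detected was made by that cell was not tested. Of the 15 pathway genes listed there, 5 lie on chromosome X (Pgk1, Pdk3, Pdha1, Prps1 and G6pdx), and 4 of these are among the 9 on the MMP-high side and 1 among the 6 on the MMP-low side. X-linked genes made up 8 of the 75 pathway genes (10.7%) and 62 of the 1810 listed genes whose symbol matched RefSeq (3.43%), at 3.28% on the MMP-low and 3.58% on the MMP-high side. These counts were made after the values were seen and carry no test. The part of the animals' sex in these values, or in those of the other genes described here, was not tested. By detection, 40 listed genes lay at no more than the distance of the third nearest gene, so that no nearest gene can be singled out.

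**Figure D1:**
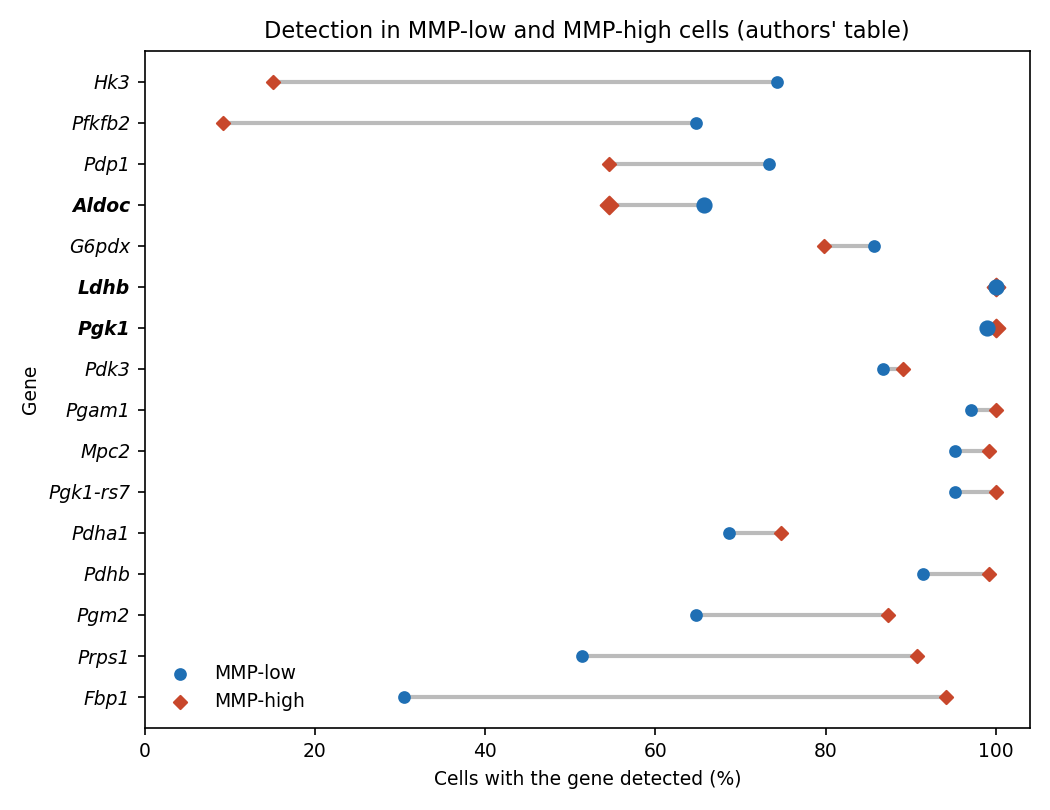
Percentage of MMP-low cells (circles) and MMP-high cells (diamonds) in which each listed glycolysis, pyruvate or pentose gene was detected, with Aldoc, Pgk1 and Ldhb in bold. Ldhb sits at 100% in both groups and Pgk1 at 99% and 100%, while Aldoc is at 65.7% in MMP-low and 54.6% in MMP-high; Hk3 and Fbp1 span the widest gaps in opposite directions.

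Over most of its transcript the sequence of Pgk1 is shared with other genes, so its value cannot be fully separated from theirs. Pgk1-rs7, a pseudogene on chromosome 12 from 10898566 to 10900313, aligned to the Pgk1 transcript over 1255 bases with 0 mismatches. Of the 1726 windows of 100 bases (the read length) in the longest Pgk1 transcript, 1157 (67%) also occur in transcripts of other genes. Pgk1-rs7 holds 1156 of them, and Gm5537, another gene, holds 1153. The converse share is 100%, since each of the 1156 windows of Pgk1-rs7 occurs in Pgk1. The authors' deposited table gives Pgk1-rs7 as found in 95.2% of the MMP-low and 100% of the MMP-high cells, with a log fold change of 0.27 toward MMP-high and an adjusted p of 0.35. The sources used here do not say how reads with several places were counted, and reads of the 2 genes cannot be told apart over these windows, so the values of both are uncertain. For Ldhb, 8.8% of 1205 windows occur in the pseudogene Gm5514. For Aldoc, 0 of 2687 windows occur in another gene.

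The pathway as a whole was divided as well. The authors' deposited table lists 15 of the 75 genes of 4 lists (core enzymes, wider pathway, pyruvate entry and pentose branch), 20.0% against 11.5% of all genes tested, 6 on the MMP-low side and 9 on the MMP-high side. With an adjusted p under 0.05 the table keeps 4 of the 75 on each side, against 3.33% (MMP-low) and 3.69% (MMP-high) of the genes tested. Which of the 75 genes were tested is not given, and the lists were drawn up with earlier results known. The median log fold change was 0.31 for the 6 and 0.35 for the 9, against 0.36 and 0.33 over all genes listed in each direction in the authors' deposited table. Of the 28 core enzymes, 5 were listed (17.9%, against 11.5% of all genes tested), with Aldoc, Pgk1 and Ldhb among the 5. Core enzymes without an entry in either table include Gapdh, Aldoa, Tpi1, Eno1, Pkm and Ldha.

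At the entry of the pathway, Hk3, a hexokinase, was found in 74.3% of the MMP-low and 15.1% of the MMP-high cells, by the authors' deposited table, with a log fold change of 0.33 and an adjusted p of 1.7e-14. Pfkfb2, a bifunctional enzyme that sets the level of an activator of phosphofructokinase, was at 64.8% of the MMP-low and 9.2% of the MMP-high cells, with a log fold change of 0.29 and an adjusted p of 1.95e-13, by the authors' deposited table. Both are also in the authors' list of 99 genes shared by MMP-low cells and dHSC, a name the files do not spell out. Fbp1, fructose bisphosphatase, which runs the phosphofructokinase step backwards in gluconeogenesis, showed the reverse, at 30.5% of the MMP-low and 94.1% of the MMP-high cells with an adjusted p of 9.53e-11, by the authors' deposited table.

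In the lower pathway, Pgam1, a phosphoglycerate mutase that acts next to Pgk1, stood on the MMP-high side with Pgk1. It was found in 97.1% of the MMP-low and 100% of the MMP-high cells, with a log fold change of 0.25 and an adjusted p of 1, by the authors' deposited table. Of 10 genes of pyruvate entry into mitochondria, 4 were listed, 3 of them on the MMP-high side, and 2 of those 3 passed the threshold of 0.05 after adjustment, by the authors' deposited table. Over all genes tested, 11.5% were listed, 5.67% on the MMP-high side, and 3.69% passed there. Pdhb, a subunit of pyruvate dehydrogenase, had 0.47 and Mpc2, a subunit of the mitochondrial pyruvate carrier, had 0.35, with adjusted p of 0.000144 and 0.000378 in the authors' deposited table. Pdha1, the partner of Pdhb, had 0.32 with an adjusted p of 1, by the authors' deposited table. Of the enzymes that switch pyruvate dehydrogenase, the activating phosphatase gene Pdp1 was on the MMP-low side (0.25, adjusted p 0.00394), and the inhibiting kinase gene Pdk3 was on the MMP-high side (0.34, adjusted p 1) in the authors' deposited table.

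Branches of the pathway also pointed both ways. G6pdx, the entry enzyme of the pentose phosphate branch, had the largest log fold change of the 15 genes, 0.63 toward MMP-low with an adjusted p of 0.000927, and was found in 85.7% of the MMP-low and 79.8% of the MMP-high cells, by the authors' deposited table. Prps1, which makes activated ribose for nucleotides, was found in 51.4% of the MMP-low and 90.8% of the MMP-high cells with an adjusted p of 8.58e-07, by the authors' deposited table. Pgm2, a phosphoglucomutase family member, was at 64.8% and 87.4% with an adjusted p of 0.079, by the authors' deposited table.

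**Figure D2:**
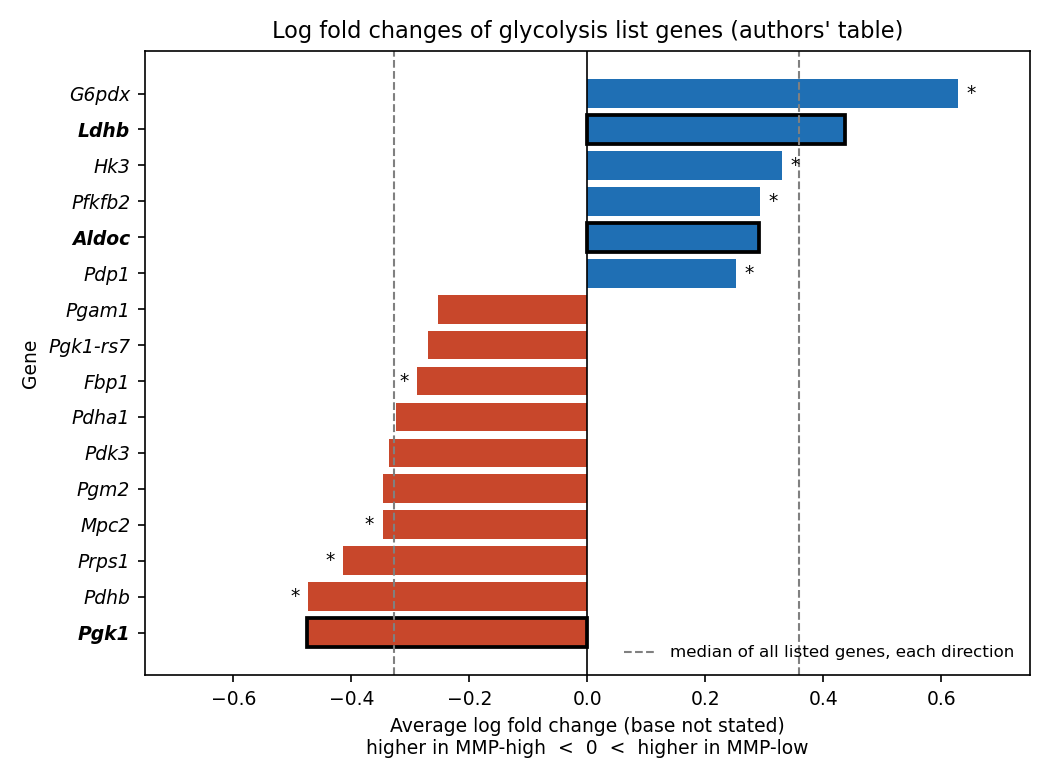
Average log fold change (base not stated) of each listed gene, drawn right of 0 when higher in MMP-low and left of 0 when higher in MMP-high; outlined bars are Aldoc, Pgk1 and Ldhb, stars mark an adjusted p under 0.05, and dashed lines give the median of all listed genes in each direction. Ldhb (0.44) and Pgk1 (0.48) exceed the median of their direction and Aldoc (0.29) does not, and none of the 3 has a star.

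Marker genes of other blood cells also stood on the MMP-low side. Of 10 granulocyte and monocyte markers, the authors' deposited table puts 7 on the MMP-low side and 0 on the other. All 7 were found in 100% of MMP-low cells and, among MMP-high cells, in 30.3% to 100%, with a median log fold change of 1.83, by the authors' deposited table. Of 7 lymphoid markers it lists 4 and of 6 erythroid markers 2, all as higher in MMP-low. Of 13 stem cell markers 6 were on the MMP-low and 1 on the MMP-high side. Slamf1, which encodes the sorting antigen CD150, was found in 76.2% of the MMP-low and 28.6% of the MMP-high cells, by the authors' deposited table. Of all genes tested, 5.86% were on the MMP-low and 5.67% on the MMP-high side. Among these listed markers, lymphoid Cd79b, erythroid Hbb-bt and the stem cell markers Mecom and Hlf did not reach an adjusted p under 0.05. The sort for Lin- and CD48- cells is meant to remove mature blood cells, and the part of such cells in the values of Aldoc, Ldhb and Hk3 was not tested. The genes detected per library also differed by library number, with medians of 2500 (MMP-low) and 4080 (MMP-high) up to number 85 and of 2083 and 1905 above it, and their part in these values was not tested either.

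Aldoc appears in the authors' enrichment table of the MMP-low side by way of granule terms and not of glycolysis. Of 61 terms in the authors' deposited table, 8 name Aldoc, and all 8 concern degranulation or the lumen of granules. Among them are neutrophil degranulation (65 listed genes of 487, adjusted p 2.71e-10), tertiary granule lumen (15 of 59, 4.55e-05) and specific granule lumen (26 of 180, 0.000132) in the authors' deposited table. Which species' annotation the terms came from is not stated.

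Pgk1 is named in 7 of 21 transcription factor sets of the MMP-high side. These are TAF1, MAX, E2F6, NFYB, ELF1, GABPA and NFYA from ENCODE, with adjusted p from 1.36e-54 for TAF1 to 4.64e-15 for NFYA in the authors' deposited table. The sets hold from 2073 (MAX) to 3715 (NFYB) genes, of which from 175 (GABPA) to 349 (TAF1) are listed. Each p is for a whole set and not for Pgk1. NFYA and NFYB are subunits of NF-Y, and the Pgk1 window printed above holds 1 CCAAT, which starts 58 bases before the gene's start. CACGTG, the E-box of MAX, which contains ACGTG, matched at 0 places in the Pgk1 window and in 7.15% of all windows. GGAAG, the core shared by ETS factors such as ELF1 and GABPA, matched at 4 places and in 71.4% of all windows. Ldhb is named in 1 of 21 sets of the MMP-low side, that of RUNX1, a master regulator of blood stem cells (100 listed genes of 1294, adjusted p 2.21e-05) in the authors' deposited table. TGTGGT, a RUNX core searched on both strands, did not match in the Ldhb window, and 16.8% of all windows held it. Aldoc is named in 0 of these sets, and its window printed above holds 1 TGTGGT, while that of its other start holds 0.

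Across the authors' 5 cell clusters, A to E, Pgk1 was listed once, in cluster C, and Aldoc and Ldhb were not listed in any. The clusters lean to the MMP groups in different ways. Of the genes listed for A and B, 65.1% and 60.4% were also listed as higher in MMP-low, and of those for D and E, 53.2% and 49.1% were also listed as higher in MMP-high. Cluster C leaned to neither so strongly, with 7.23% and 14.6%. The clusters were made from the same cells and genes, so a gene listed for a cluster is a description.

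Pgk1 was detected in 100% of cluster C cells and in 99.4% of the other cells in the authors' deposited table. Its log fold change there was 0.28, below the median of 0.35 over the 830 genes listed for cluster C, and the adjusted p was 1; the table lists 5.12% of the genes tested for C and keeps 3.07% with an adjusted p under 0.05. Pgk1-rs7 was listed for the same cluster with a log fold change of 0.27 and detection of 98.5% and 97.4% in the authors' deposited table. The gene listed as higher in MMP-high cells was thus listed for C and for neither D nor E.

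Of the 75 pathway genes, 16, Pgk1 among them, were listed for at least 1 cluster in the authors' deposited table, 21.3% against 17.8% of all genes tested. Per cluster, A to E, this gave 4, 5, 3, 5 and 4 genes (5.33%, 6.67%, 4.0%, 6.67% and 5.33% of the 75), against 5.27%, 4.16%, 5.12%, 3.23% and 2.8% of the genes tested. With an adjusted p under 0.05 it keeps 4, 1, 1, 2 and 1, against 4.05%, 1.64%, 3.07%, 1.86% and 1.12%. The genes listed for both A and B were Pfkfb2 and G6pdx. Pfkfb2 was detected in 97.8% of cluster A and 19.6% of the other cells, and in 82.1% of cluster B and 28.6% of the other cells in the authors' deposited table. Pfkfb4, a second enzyme of that family, was at 66.7% against 22.9% in A, and Pdp1 at 97.8% against 54.7% in A, in the authors' deposited table. Hk3 was listed for B at 85.7% against 36.7%, with an adjusted p of 0.12, by the authors' deposited table. Bpgm, which makes the bisphosphoglycerate that lowers the oxygen affinity of hemoglobin, was listed for B with a log fold change of 0.57 and an adjusted p of 0.00278, and Adpgk, an ADP-dependent glucokinase, with 1.06 and an adjusted p of 1, by the authors' deposited table. Granulocyte and monocyte markers were also listed mainly for B, with 6 of 10 against 2 for A, and their part in the B values was not tested.

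Other enzymes of the same steps were listed for D and E. Hk1, the widely expressed hexokinase, was listed for D at 100% against 83.2% of other cells, with an adjusted p of 1, by the authors' deposited table. Pfkp, the platelet form of phosphofructokinase, was listed for E at 100% against 54.7%, with an adjusted p of 0.00209, by the authors' deposited table. Pdha1 was listed for D at 100% against 63.6% with an adjusted p of 0.00618, by the authors' deposited table. Prps1, Pgm2 and Pdk3 were listed for both D and E, at 98% to 100% of cluster cells and 64.2% to 85.9% of other cells in the authors' deposited table. Of these 6 entries, only Prps1 in D passed (adjusted p 0.0298), and the others had adjusted p from 0.17 to 1 in the authors' deposited table. Fbp1 was listed for C at 98.5% against 49.4% with an adjusted p of 8.91e-18, and Tkt, the transketolase of the pentose branch, for C at 100% against 99.4% with an adjusted p of 1, by the authors' deposited table.

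**Figure D3:**
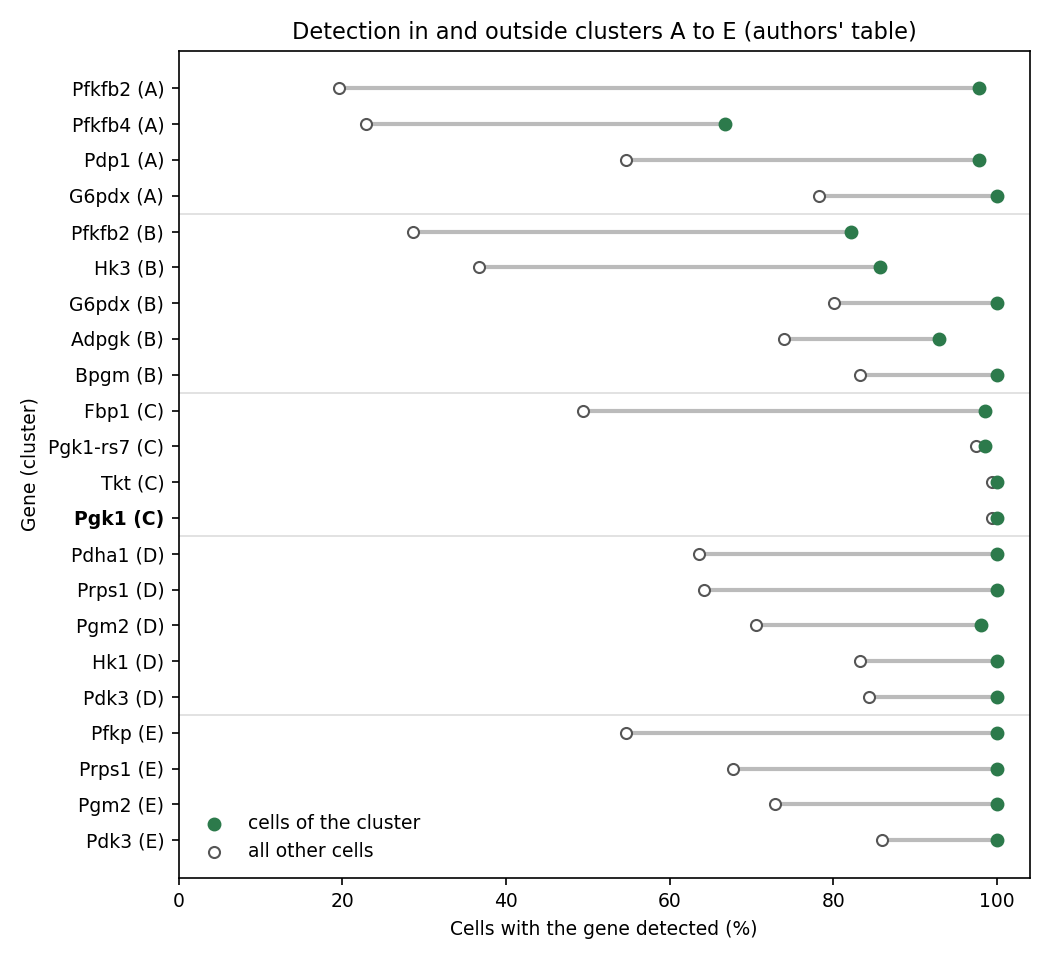
Percentage of cells with each gene detected in the cluster named in brackets (filled circles) and in all other cells (open circles), for the 75 pathway genes and Pgk1-rs7 where the authors' deposited table lists them. Pgk1 is near 100% in and outside cluster C, while Pfkfb2 in cluster A spans 97.8% to 19.6%.

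The authors also compared the clusters by a score for glycolysis and gluconeogenesis as a whole. Their deposited table gives a Kruskal-Wallis chi-squared of 91.1 with 4 degrees of freedom over cells, rank 8 of 13 pathway blocks that range from 51.3 to 138. The genes behind the score are not given, so it is not known whether Aldoc, Pgk1 or Ldhb enter it. The z values of all 10 pairs of clusters follow 1 order, B, C, D, A and E, with B and E at the ends. The pair of B and E had a z of -8.70, the largest of the 10 in size, and the pair of C and D had 1.30, the smallest, in the authors' deposited table. The p of the pair C and D was 0.965 and that of A and D 0.069, and the other 8 pairs, down to A and E with a p of 0.02, carry the authors' star in their deposited table. Every p in this table equals 10 times the one-sided normal tail of its z within 0.0002, in 130 of 130 pairs.

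The table does not say which way the sign of z points. If it is the value of the column cluster minus that of the row cluster, E had the highest and B the lowest glycolysis score, and if it is the opposite the order is turned round. A further deposited table gives glycolysis in words as lower in MMP-low than in MMP-high. The order does not follow the MMP sides, since A, of which 65.1% of listed genes were higher in MMP-low, stands beside E. It is also not particular to glycolysis, since 6 of the 13 blocks have the same order and 11 have B and E at the ends.

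**Figure D4:**
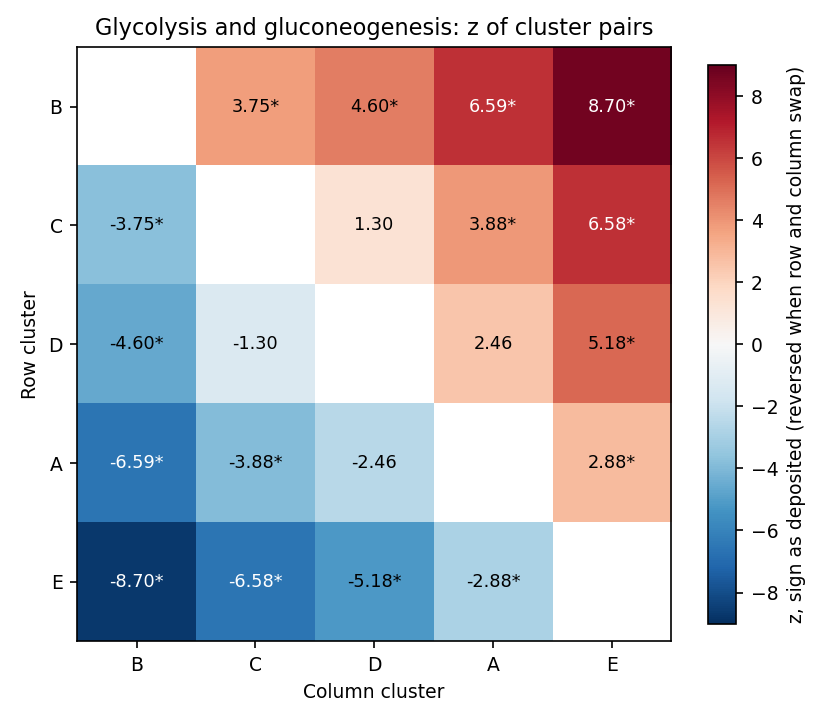
z of each pair of clusters in the authors' glycolysis and gluconeogenesis block, with clusters ordered as in the text; each pair was deposited once, the mirrored cell has the opposite sign, and stars are the authors'. C and D give the smallest z (1.30) and E and B the largest in size (-8.70).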

How the data were processed

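Single HSCs were captured on a Fluidigm C1 chip and made into libraries with SMART-Seq v4 and Nextera XT and read once over 100 nt, per the labels' protocols. Tools and build were STAR 2.5.2b, bcl2fastq 2.17.1.14 and mm10, per the submitters' processing notes. The sources used here do not give the counter, annotation, normalization or treatment of reads with several places.

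The authors deposited, per gene, a p-value, an adjusted p-value, a fraction of cells with the gene detected per group or cluster and an average log fold change, used here as a score because its base is not stated. MAST is named for the MMP table, per the file headers. The adjusted p-value equals p times 16203 within 0.1% in 1376 of 1376 values below 1 in the MMP table and in 2385 of 2385 in the cluster table, so 16203 is taken as the number of genes tested. The first of the 2 fractions was read as that of the group named in the row, since it is the larger or equal one for 95.3% of MMP-low and 97.9% of MMP-high genes. The series' design text gives 224 kept cells in all but not the number per group, so no interval is printed for a fraction. Counts of reads and of detected genes were taken per library from the authors' deposited quality table. Total reads ran from 678723 to 5074155 in MMP-low and from 949570 to 4308287 in MMP-high libraries, and more reads give more precise detection. The expression profiling efficiency was deposited as a fraction per library, with a median of 18.3% in MMP-low and 31.3% in MMP-high libraries. Up to number 85 the medians were 24.5% (MMP-low) and 58.5% (MMP-high), with median mapped reads of 472174 and 1035705. Above it they were 14.6% and 13.7%, with 564476 and 454512 mapped reads. The part of these values in detection was not tested.

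Fractions were turned into percent, and counts, medians and ranks were made with python 3.11.15 and pandas 2.3.3. No test was run on cells. The 3 genes and all lists were chosen with earlier results of these data known. Named were the 3 genes, every listed gene of the 75 pathway genes, and the 3 listed genes nearest to each of the 3 by Euclidean distance over the 2 detection percentages. Genes with a Gm number, Rik or -ps name were left out of the nearest genes, and where many genes tied none is named. Any other gene was chosen after its values were seen. Of endothelial and stromal markers 0 of 4 and of megakaryocyte markers 1 of 4, Vwf on the MMP-low side, were listed in the MMP table. The share over all genes tested was 11.5%. Promoters are from RefSeq (GRCm38.p6), where all 3 genes matched, and windows of 100 bases were compared exactly with GENCODE M21 transcripts of other genes. Motif and window searches were tested on simulated sequences. Alternatives were other limits on adjusted p, fold and detection, a shorter list, ratios of percentages and subsets of libraries.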

Additional observations from a re-analysis of the deposited data

How the results depend on the processing

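Of Aldoc, Pgk1 and Ldhb, 0 stood on either MMP side at an adjusted p under 0.05 or 0.01 by MAST in the authors' deposited table. Without a limit on adjusted p, where the unadjusted p is under 0.01, 2 stood on the MMP-low side and 1 on the MMP-high side. Of the 75 pathway genes, 6 on the MMP-low side became 3 with core enzymes alone and 1 at a minimum log fold change of 0.5. The 9 on the MMP-high side became 2 and 0, and 4 with an adjusted p under 0.05. Over clusters B, C, D and E, 5, 3, 5 and 4 genes became 1, 1, 2 and 1 with an adjusted p under 0.05, while A kept its 4. At a minimum log fold change of 0.5, A to E held 0, 3, 0, 1 and 0, and with core enzymes alone 0, 1, 1, 1 and 1. In these cases a stricter limit or a shorter list leaves fewer genes by construction. The detection of Aldoc differed by a ratio of 1.20 or an odds ratio of 1.59, in the same direction; for Pgk1 and Ldhb an odds ratio could not be had, as a group stood at 100%. The median number of genes per library differed by 1479 (MMP-high minus MMP-low), and by -178 among libraries numbered above 85; the cause was not tested. All other alternatives for that difference, 1164 to 1580, kept its direction, and 9 and 7 of 10 cluster pairs had a z of at least 2 and 3 in size. No paired analysis was possible because no test was run here, the authors' tests over cells come as results only, and the numbers in the titles only name cells. The depth of a single cell limits what detection can show.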
